A study of Drosophila melanogaster with 15 samples.

Results

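The transcripts described here were present in the early embryo before nuclear cycle 9, when its RNA is largely maternal, were still present when cellularisation began and stood at 25% of their early level or less at both later stages. They were chosen from stage means of the deposited signal, a linear array unit scaled to an average of 100 per array. A probe set, the group of short probes that measures 1 transcript, was taken where its mean was at least 100 at stage T0 and its T1 mean was at least the T0 mean divided by 1.5. Its T3 mean and its T4 mean each had to be at most the T0 mean divided by 4. Of 13966 probe sets, 77 met this rule. They stand for 68 genes with a single symbol, 3 of which (mol, RhoGAP18B and CG14764) were measured by 2 chosen probe sets each, while 5 probe sets had no gene symbol and 1 had several.

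RNA had been prepared from whole Drosophila melanogaster embryos picked by eye for their stage, with 3 arrays at each of 5 stages and 15 arrays in all. T0 embryos had not reached nuclear cycle 9, T1 embryos were in slow and T2 embryos in fast cellularisation, when membranes grow down between the nuclei. The sample labels put T3 and T4 at the beginning and the end of germ band elongation, and the series text puts them at the limits of gastrulation. The flies were yellow white and Oregon R, which the labels name as parents of the T0 and T1 embryos and as the T2, T3 and T4 embryos, with no mutation, driver or drug named beyond these. The labels do not say that the arrays of a stage came from separate collections, so the p-values reflect no more than how far these samples spread, possibly for technical reasons. Arrays of 1 stage correlated with r from 0.925 to 0.964 over all probe sets, on the log2 scale.

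The egg is supplied with a large store of maternal RNA, and the embryo removes much of it while its own genes are switched on. As textbook background, one set of clearance factors comes from the mother and acts from egg activation, with the RNA-binding protein Smaug among them, and another depends on transcription in the embryo and includes microRNAs. RNAs that outlast the earliest mitoses and vanish around cellularisation are usually placed with the later activity.

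The stage labels were checked against marker genes. The summed signal of 5 zygotic cellularisation genes (nullo, slam, bnk, Sry-alpha and halo) lay between 505 and 619 on the T0 arrays and between 18230 and 19672 at T1. Later sums were 3003 to 3283 at T2, 961 to 1025 at T3 and 658 to 786 at T4. Of these 5 genes slam is itself a chosen probe set, with means of 486 at T0 and 8764 at T1. The other means went from 11.8 to 422 (nullo), 3.13 to 30.7 (bnk), 42.1 to 5056 (Sry-alpha) and 14.8 to 4672 (halo). At T0 the arrays of 3 of these 5 genes were all at or under 21.96, the 95th percentile over all arrays of 23 negative-control probe sets, used below as the background level. The mesoderm genes twi and sna together gave 24.7 to 50.8 at T0 and 2416 to 2588 at T1. With 2375 to 2944 at T2, 2149 to 2575 at T3 and 1907 to 2459 at T4, they did not separate the later stages. Among the chosen probe sets the T0 mean ran from 101.5 to 1191, with a median of 218.

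The only stage that played no part in the choice was T2, so the question here was where between T1 and T3 the signal fell. Most of the fall lay between slow and fast cellularisation. The arrays do not tell maternal RNA from RNA newly made by the embryo, so the share of each in this fall was not tested. The median signal was 258 at T1, 46.5 at T2, 24.3 at T3 and 29.5 at T4. All 77 T2 means lay below their T1 means, and in the 47 with every T2 array above the background level the T1 mean was between 1.54 and 20.1 times the T2 mean, with a median of 4.06. In 76 of the 77 every T2 array lay below every T1 array, as in 11.0% of all probe sets, and Gtpx was the exception.

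**Figure D1:**
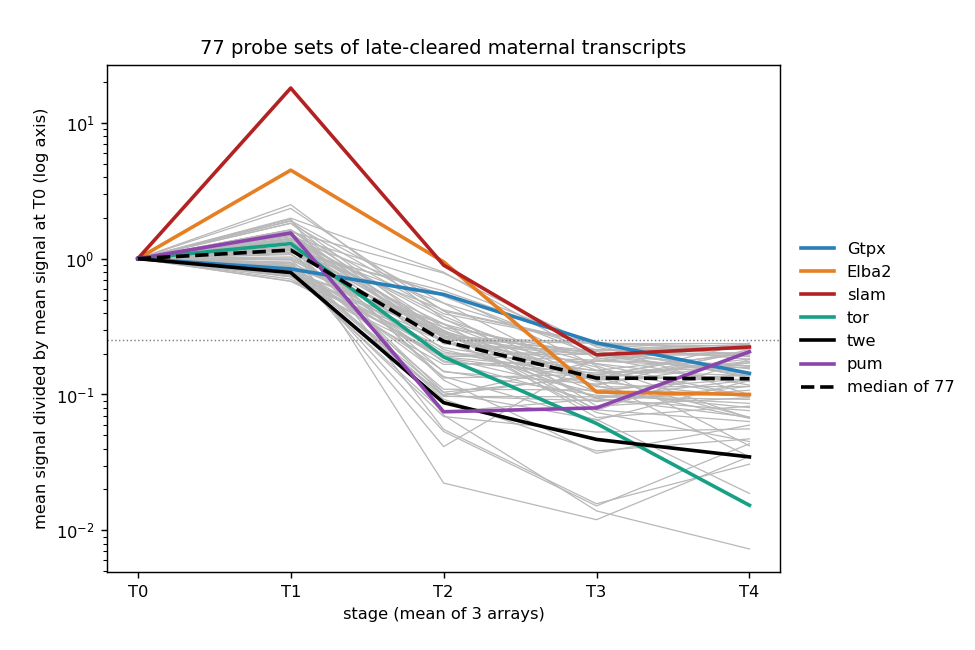
Mean signal of 3 arrays per stage, divided by the T0 mean, on a log axis, with 1 line for each of the 77 probe sets, 6 genes in colour and the median dashed. The median stands at 1.16 at T1, 0.247 at T2 and 0.132 at T3, and slam and Elba2 rise to 18.0 and 4.48 times their T0 level before they drop, while the dotted line marks 25% of T0, the ceiling that the rule set for T3 and T4.

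In a linear model over all probe sets and arrays (limma on log2(signal + 7.3)), a probe set was called where its Benjamini-Hochberg adjusted p was under 0.05 and its log2 change at least 1 in size. The added 7.3 makes these log2 changes understate the change of dim transcripts. At T2 against T1, 73 of the 77 were called lower and none higher, all estimates being below 0, whereas 4.25% of all probe sets were called lower and 5.39% higher. Of the 2385 probe sets that met the T0 and T1 criteria, members included, 12.7% were called lower. The median log2 change of the members was -2.22, against 0.14 over all probe sets. T1 was used in the choice, as a lower limit, so these calls are not independent of it. Of the 73 calls 64 stood under every alternative tried. With arrays centred on cytoplasmic ribosomal proteins all 77 changes were still below 0 and their median was -2.43.

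The fall from T1 to T3 is fixed by the rule, but its division at T2 is not. On the log2 scale the median member had completed 76.1% of this fall at T2, with an interquartile range from 63.4% to 92.7%. Taken array by array, the median share at T2 was 78.4%, 78.6% and 79.7%. At T2 40 members had already reached 25% of their T0 mean or less, 37 had not, and 4 were still within 1.5 times of it. At least 75% of the fall was complete in 41 members and less than 50% in 9.

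**Figure D2:**
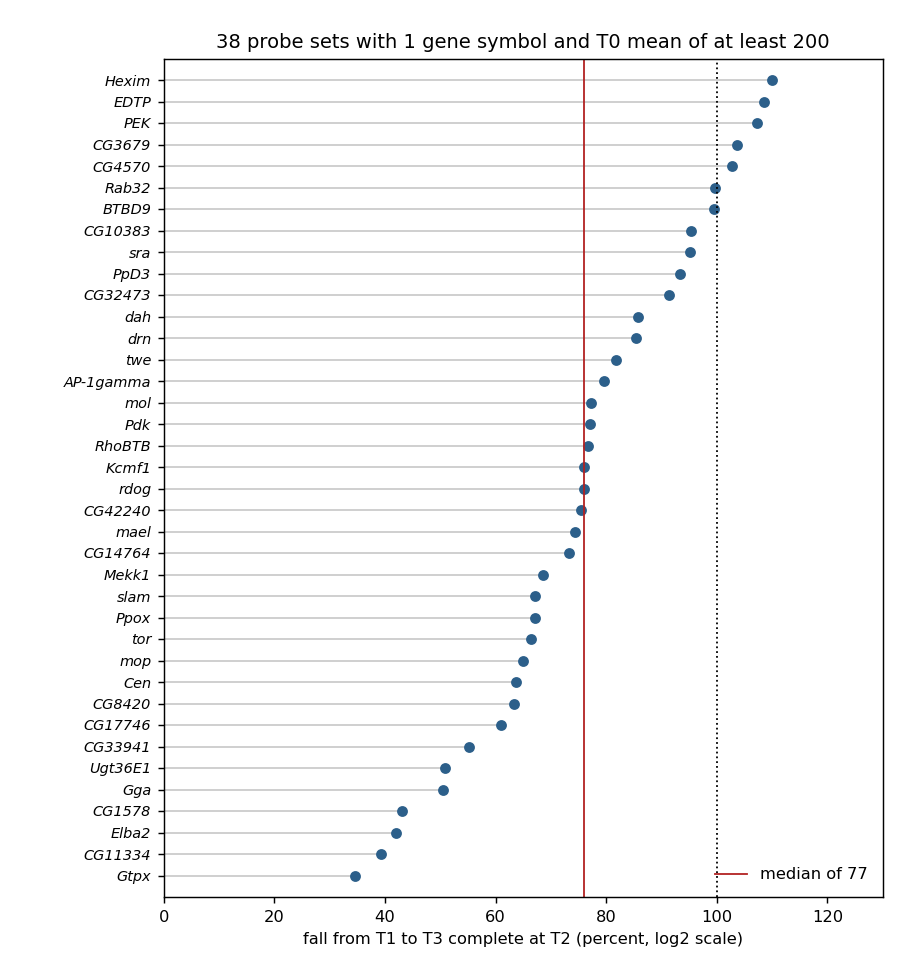
Share of the fall from T1 to T3, on the log2(signal + 7.3) scale, that was complete at T2, for the 38 probe sets with a single gene symbol and a T0 mean of at least 200. The values run from 34.7% for Gtpx to 110% for Hexim, and the red line marks the median of all 77 members, 76.1%, while 100% (dotted) means that T2 was already as low as T3.

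The second step was smaller in the measured signal, whose T3 median of 24.3 was close to the background level. At T3 against T2, 17 of the 77 were called lower in limma, against 0.773% of all probe sets, and the median log2 change was -0.70. Of the 2308 other probe sets that met the T0 and T1 criteria, 1.39% were called lower. T3 was held low by the rule, so the members' calls and their direction are not independent of the choice. None was called higher, as 0.666% of all probe sets were, although Myd88 alone was higher at an unadjusted p under 0.05. Every T3 array lay below every T2 array in 32 members, as in 8.46% of all probe sets, and above them in 3, as in 9.47%. Of the 17, 15 had also been called lower at T2, so that they fell in both steps. The other two, Gtpx and a probe set with no symbol, were called lower only at T3 against T2. The latter missed the call at T2 by the size limit alone, its T2 arrays all being below its T1 arrays (log2 change -0.99, limma adjusted p = 0.0041). A further 2 probe sets, CG1578 and one with no symbol, were called in neither step. With arrays centred on ribosomal proteins 7 of the 77 were called lower at T3 against T2 in place of 17.

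The steps were also compared directly, as the change from T2 to T3 minus the change from T1 to T2. Here a positive value means a larger fall before T2. It was positive in 66 members and called in 22, all of them positive, against 0.974% of all probe sets called positive in limma. Of the 2308 other probe sets that met the T0 and T1 criteria, 2.64% were called positive and 0.0433% negative. Calls there were thus also mostly positive. T1 and T3 both enter this difference and were used in the choice, so the members' calls and their direction are not independent of it. No member was called negative, as 0.365% of all probe sets were, and 1, the probe set with no symbol that was called only in the later step, was negative at an unadjusted p under 0.05. The count of called members was 10 with an added constant of 1, 38 with 29.3, the median signal, and 6 with the replicate block. It was 12 to 23 when 1 array was left out, 12 without T2 replicate 4 and 13 without T2 replicate 1. Under every alternative 5 of the 22 stood, namely ftz-f1, Myd88, Rab32, CG4570 and the probe set with several symbols. For ftz-f1 and Myd88 every T2 array was under the background level, so a further fall to T3 could not be seen.

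**Figure D3:**
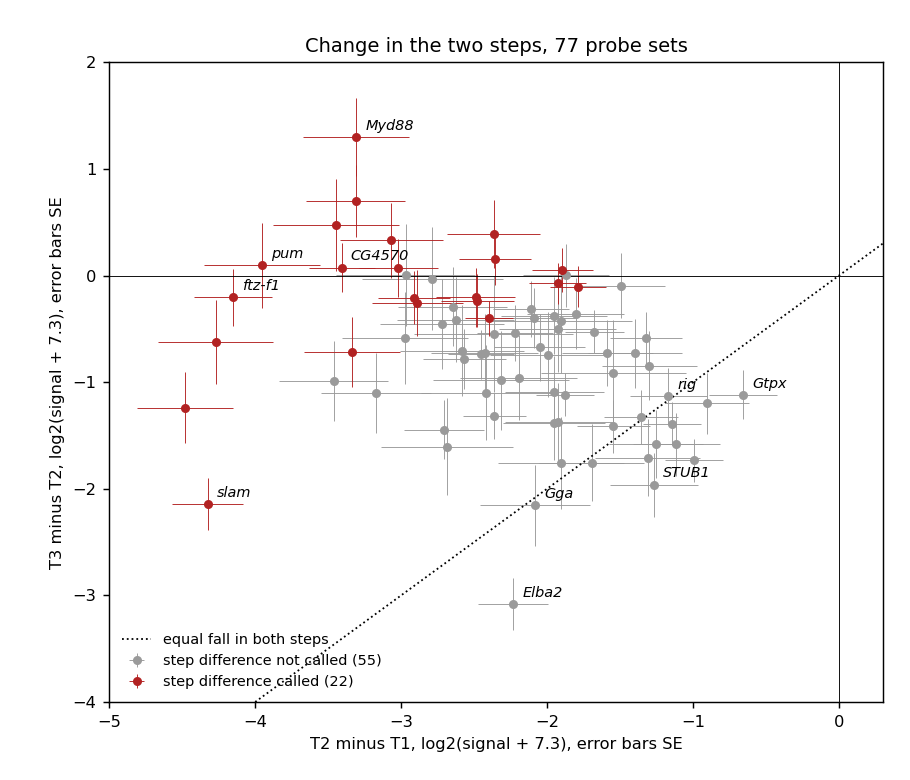
Change from T1 to T2 (horizontal) and from T2 to T3 (vertical) on the log2(signal + 7.3) scale, with standard errors from limma, for the 77 probe sets. The 22 red points, whose fall was called larger before T2, all lie above the dotted line of equal steps, and Elba2, STUB1 and Gtpx lie below it.

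The genes are described by role, in groups formed after their values were seen. Of all 77 members 73 were called lower at T2 and 17 at T3, and the counts of each group are to be read beside these. The furrow, cortex and cytoskeleton group held 10 probe sets of 9 genes, all 10 called lower at T2 and 2 called lower again at T3. The gene slam, needed for membrane growth during cellularisation, had signals of 537, 438 and 484 on the T0 arrays and 9538, 7819 and 8934 at T1. At T2 they were 370, 546 and 392 and at T3 126, 60.7 and 99.2. The T2 arrays thus overlapped with those of T0, far below T1, and the T3 arrays lay below all of these. The T1 to T2 change of slam was -4.32 ± 0.24 (SE, as for later log2 changes) on the log2 scale (limma adjusted p = 3e-07), and the next step was -2.14 ± 0.24 (limma adjusted p = 0.0006). The gene was chosen although its T1 level was 18.0 times T0, because the rule sets no upper limit at T1.

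The gene dah, which acts on the actin cytoskeleton of the cleavage furrow, had 790, 894 and 744 at T0 and 1119, 1075 and 1225 at T1. Its T2 arrays gave 225, 203 and 203, and its T3 arrays 165, 161 and 147. All T2 arrays were well below T1, and T3 and T4 lay only slightly lower (T4 mean 158 ± 16.1, SD, n = 3). The T1 to T2 change of dah was -2.40 ± 0.16 (limma adjusted p = 1e-06), and the T2 to T3 change of -0.40 was not called. Cen, a centrosomal protein of the cleavage furrow, went on falling for longer. It had 890, 1067 and 981 at T1, 198, 224 and 141 at T2 and 64.6, 65.9 and 78.9 at T3. For Cen no array of a stage overlapped with the next, and both changes, -2.36 and -1.32 on the log2 scale, were called, the later one not with arrays centred on ribosomal proteins.

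The polarity kinase gene par-1 had a mean of 252 ± 17.8 at T1 and 44.8 ± 23.5 at T2 (SD, n = 3). The formin gene Fhos fell at least 7.23-fold from T1 to T2. In a fold given as "at least", all dim arrays lay at or under the background level, and the dim side was set to that level.

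**Figure D4:**
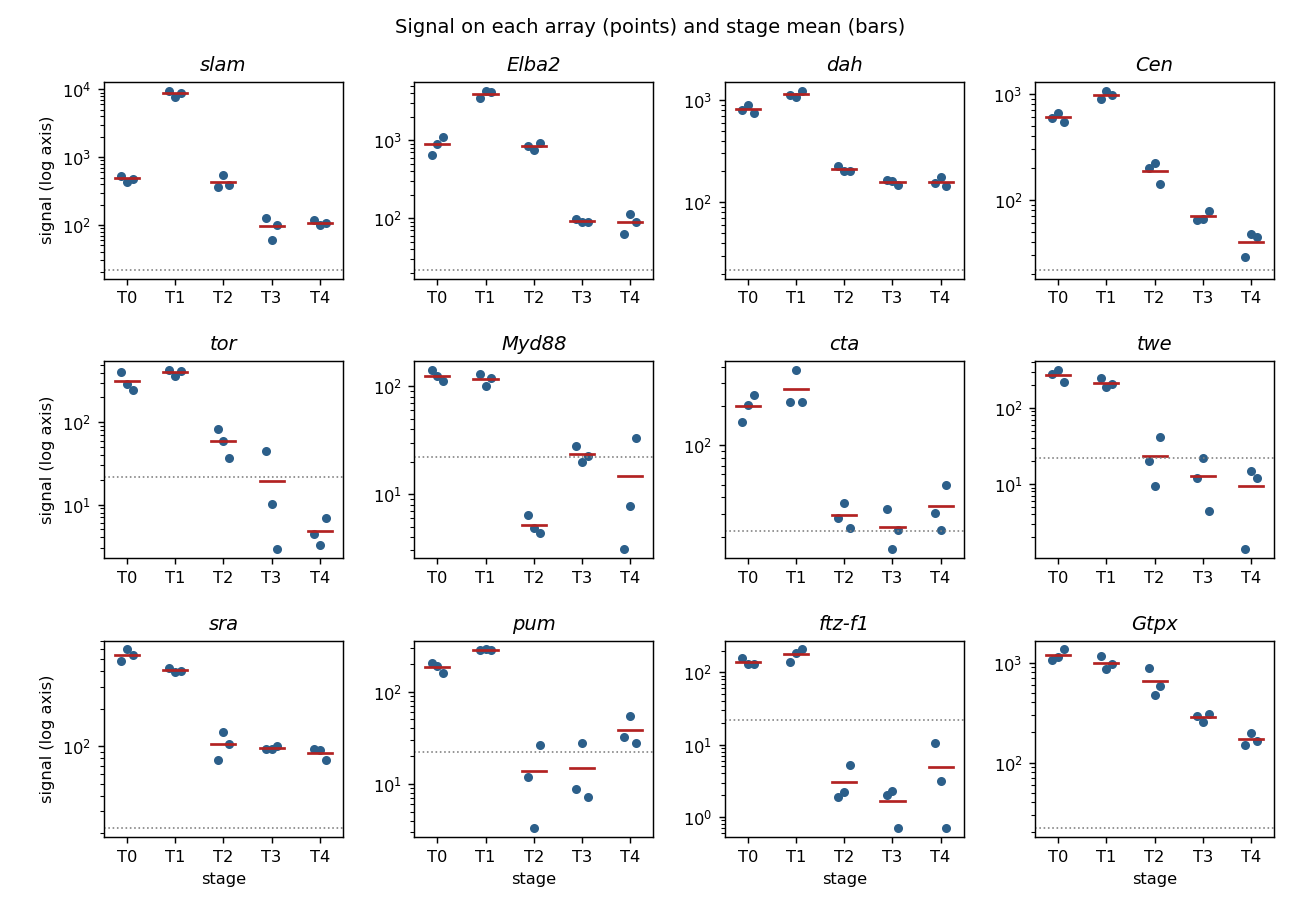
Signal on each of the 15 arrays (points), with stage means (bars), on log axes for 12 of the genes. The dotted line is the background level of 21.96, and the T2 points lie below all T1 points in every panel except that of Gtpx.

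The signalling group comprised tor, Myd88, cta and Mekk1, and all 4 were called lower at T2 while none was at T3. The gene tor encodes the receptor tyrosine kinase that specifies the embryo's ends. Its arrays gave 408, 290 and 244 at T0, 429, 364 and 423 at T1 and 81.7, 59.5 and 36.6 at T2. At T3 they were 44.4, 10.3 and 2.90, which overlapped with T2, and at T4 all 3 lay under the background level with a highest value of 6.80. The T1 to T2 change of tor was -2.69 ± 0.45 (limma adjusted p = 0.0012).

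Myd88, an adaptor of the Toll receptor in dorsoventral patterning, had 141, 125 and 111 at T0 and 130, 101 and 120 at T1. Its T2 arrays, 6.40, 4.80 and 4.40, were all under the background level, at least 5.29-fold lower than T1. At T3 they were 28.1, 19.7 and 22.8, close to the background level and above every T2 array, but this change was not called (limma adjusted p = 0.10). The gene cta encodes the G protein alpha subunit through which Fog acts on apical constriction at gastrulation. Its signals were 215, 377 and 217 at T1 and 28.0, 36.4 and 23.3 at T2, and T3 (32.6, 16.1 and 22.6) overlapped with T2. The cta change to T2 was -2.89 ± 0.31 on the log2 scale (limma adjusted p = 4.9e-05). Myd88 and cta, like Pp2B-14D, EDTP, PEK, Hexim, Mekk1 and Ppox below, were named after their values were seen.

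Among 5 phosphatases and phosphatase regulators, all 5 were called lower at T2 and none at T3, and the median share of the fall complete at T2 was 95.1%. All had T1 means at or below T0, with ratios from 0.743 to 0.938. The gene twe, the Cdc25 phosphatase of meiosis that also serves the early mitoses, had 252, 187 and 207 at T1 and 20.1, 9.40 and 41.7 at T2. The twe groups did not overlap, and its change was -2.97 ± 0.43 (limma adjusted p = 0.00042). The calcineurin regulator gene sra, which is needed for egg activation, had 425, 399 and 404 at T1 and 77.6, 131 and 105 at T2. It then stayed near that level, with 94.4, 95.1 and 101 at T3 and a T4 mean of 88.3 ± 9.14 (SD, n = 3). Pp2B-14D, which encodes a catalytic subunit of calcineurin, was dimmer and went from 98.0, 60.7 and 115 at T1 to 15.7, 16.2 and 4.50, at least 4.01-fold lower. The protein phosphatase gene PpD3 fell by 1.79 on the log2 scale, and the phosphoinositide phosphatase gene EDTP fell by 3.07.

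The RNA and transcription regulators comprised 7 genes, all 7 called lower at T2 and 3 of them (Elba2, squ and rig) lower again at T3. The translational repressor gene pum, which acts with Nanos on hunchback RNA, had 206, 191 and 158 at T0 and 287, 287 and 283 at T1. Its T2 arrays gave 11.8, 3.30 and 26.3, the change being -3.95 ± 0.40 on the log2 scale (limma adjusted p = 3.1e-05). At T4 they gave 32.6, 54.1 and 27.8 after 8.90, 28.1 and 7.20 at T3, which overlapped slightly, and this change was not called (limma adjusted p = 0.23). The nuclear receptor gene ftz-f1, the partner of the pair-rule protein Ftz, had 141, 185 and 207 at T1 and 1.90, 2.20 and 5.20 at T2. For ftz-f1 this was at least 7.99-fold lower, and all its later arrays also stayed under the background level, with 10.7 as the highest. Hexim, an inhibitor of the transcription elongation kinase P-TEFb, fell by 3.45.

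Elba2, a subunit of the Elba insulator complex of the early embryo, was back at its T0 level at T2 and far below it only at T3. It had 643, 911 and 1111 at T0, 3491, 4324 and 4128 at T1 and 848, 750 and 927 at T2. The T2 arrays lay within the range of T0, and the T3 arrays, with 99.2, 89.1 and 89.9, lay below every earlier array. Its T2 to T3 change was -3.08 ± 0.24 (limma adjusted p = 3.9e-05). The step from T1 to T2 was -2.23 ± 0.24, and the difference between its steps was not called (limma adjusted p = 0.42).

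The genes mael and squ act in the piRNA pathway, which silences transposons in the germline. The mael arrays gave 622, 565 and 551 at T1, 95.1, 194 and 130 at T2 and 56.1, 97.4 and 97.8 at T3. T2 lay below all T1 arrays, and the later change was not called. For squ the values were 171, 228 and 178 at T1, 75.1, 50.7 and 40.5 at T2 and 2.20, 22.4 and 13.8 at T3, without overlap between stages. Both squ steps, -1.70 and -1.75 on the log2 scale, were called, but with a constant of 1 neither was, and the later call was also lost with the replicate block and without T2 replicate 1, T2 replicate 3, T3 replicate 1 or T3 replicate 3. Of the 6 pole cell markers 5 (vas, pgc, gcl, aub and osk) were measured, and their summed signal was 3702 to 4501 at T0, 619 to 666 at T1, 335 to 451 at T2, 255 to 321 at T3 and 213 to 245 at T4. In these whole-embryo arrays fewer cells of a type and less RNA per cell cannot be told apart, and the part of pole cells in these values was not tested. At T4 pgc and osk were at or under the background level on every array. The markers did not all move together. The mean of gcl was 70.7 at T2 and 109 at T4, and that of vas 7.03 at T3 and 20.9 at T4. For aub it was 144 at T0, 266 at T1 and 76.0 at T4. The rig gene, for the Gemin5 component of the SMN complex, fell by 1.17 and then by 1.13, and its later call was lost under 16 of 23 alternatives, 11 of them with 1 array left out.

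In membrane traffic 4 genes were called lower at T2. Gga, a clathrin adaptor of the trans-Golgi network, was lower again at T3. Its arrays gave 581, 432 and 489 at T1, 144, 89.5 and 108 at T2 and 18.0, 8.20 and 41.6 at T3, so that it fell by about the same amount in both steps (-2.08 and -2.16 on the log2 scale). The clathrin adaptor subunit gene AP-1gamma had 490, 370 and 580 at T1 and 91.2, 130 and 73.6 at T2, and the next change was not called. Rab32, a GTPase of lysosome-related organelles, had 374, 285 and 323 at T1 and 48.3, 43.6 and 17.2 at T2 and was no lower at T3 (42.5, 30.9 and 35.0). For Rab32 the difference between the steps was 3.09 ± 0.47 (limma adjusted p = 0.0061). The endosomal sorting gene mop went from a mean of 542 ± 75.7 to 134 ± 11.2 (SD, n = 3).

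In protein quality control and modification all 6 genes were called lower at T2 and 2, STUB1 and Ntan1, again at T3. STUB1, a ubiquitin ligase that works with chaperones, had 135, 123 and 142 at T0 and 240, 279 and 277 at T1, above every T0 array. At T2 it was back near T0, with 108, 120 and 91.4, and at T3 the arrays gave 8.30, 30.8 and 33.8. The later change of STUB1, -1.96 ± 0.30 (limma adjusted p = 0.005), was larger in size than its earlier one of -1.27, which was not called with a constant of 1, but the difference between the steps was not called (limma adjusted p = 0.64). PEK, a kinase of the response to misfolded protein in the endoplasmic reticulum, had 330, 238 and 324 at T1, 55.5, 51.5 and 47.9 at T2 and 63.9, 59.8 and 51.9 at T3, with no further loss. The ubiquitin ligase gene Kcmf1 fell by 3.17 at T2, and RIOK1, a kinase of ribosome maturation, fell by 2.11. Ntan1, an amidase of protein N-termini, fell by 1.55 and then by 1.41, and the N-terminal acetyltransferase gene Naa60 fell by 2.37 at T2.

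The metabolism and lipid group held 9 probe sets of 8 genes, of which 8 probe sets were called lower at T2. The exception was the peroxidase gene Gtpx, the member with the highest T0 mean. It had 1068, 1150 and 1356 at T0, 1156, 874 and 970 at T1 and 891, 479 and 578 at T2. T1 and T2 overlapped, and the change of -0.66 ± 0.23 was not called (limma adjusted p = 0.083). At T3 the Gtpx arrays lay below all T2 arrays, with 293, 257 and 307, and were lower still at T4, with 150, 199 and 163. Its T2 to T3 change was -1.12 ± 0.23 (limma adjusted p = 0.027), and this was no longer called after centring on ribosomal proteins, with a constant of 1, with the replicate block, or without T2 replicate 1 or any of the 3 T3 arrays. The gene mol, whose product matures the enzyme Duox, was measured by 2 chosen probe sets, both near the background level at T2. Its brighter probe set had 545, 603 and 565 at T1 and 8.30, 33.0 and 20.4 at T2, and its other chosen probe set had 321, 238 and 344 and then 23.2, 5.20 and 3.00. Both mol changes, -4.48 and -4.27 on the log2 scale, were thus of like size. The pyruvate dehydrogenase kinase gene Pdk fell by 2.57 and the lipophorin receptor gene LpR2 fell by 1.95. The sphingolipid synthesis gene Kdsr fell by 1.93, the membrane protease gene S2P fell by 2.32 and the lipase gene dob fell by 2.72. Ppox, an enzyme of heme synthesis, fell by 1.59.

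The remaining 32 probe sets, 22 of them with CG symbols only, had T0 means from 101.5 to 1129. Of these 29 were called lower at T2 and 8 at T3, with log2 changes from T1 to T2 between -3.46 and -0.90. Brightest among those with a full name were drn and the gene rdog. The drn arrays gave 953, 1041 and 445 at T0, 565, 526 and 569 at T1 and 148, 166 and 146 at T2, so that T1 was lower than 2 of the 3 T0 arrays. The rdog arrays gave 400, 324 and 357 at T1 and 103, 128 and 93.0 at T2. Both were called lower at T2 and not at T3.

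Between T3 and T4 the median log2 change was -0.05, and single changes ran from -1.42 to 1.12. At T4 39 members had a lower and 37 a higher mean than at T3, and RhoBTB had equal means. One was called lower in limma, against 0.558% of all probe sets, and none was called higher, against 0.516%. The rule set a ceiling for both stages, so nothing is read from these shares. At an unadjusted p under 0.05 there were 8 lower and 3 higher. The called gene was Ppox, with 29.4, 30.7 and 53.6 at T3 and 4.90, 7.40 and 17.6 at T4 (limma adjusted p = 0.041). The call was lost under 15 of 23 alternatives, namely centring on ribosomal proteins, both other constants and 12 of the fits that left out an array. The arrays of T4 lay below those of T3 in 8 members, as in 7.25% of all probe sets, and above them in 2, as in 10.4%. At T4 all 3 arrays were at or under the background level in 18 members, compared with 15 at T3 and 6 at T2, and for those the level has only an upper bound.

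The level at T1 differed among the members and was in part fixed by the rule, so it is described without a test. The T1 mean was above the T0 mean in 46 members and below it in 31, with a median ratio of 1.16. In 4 members it was at least 2 times T0, namely slam (18.0), Elba2 (4.48), a probe set with no symbol (2.50) and RhoBTB (2.34). These ratios depend on the scaling, because each array is relative to its own average. With arrays centred on the ribosomal proteins 15 members were above T0 at T1, 2 were at least 2 times T0, and 33 of the 77 no longer met the T1 limit. After quantile normalization 55 were above T0 and 7 were at least 2 times T0.

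Near the limits, the lowest T0 means inside were those of CG17129 (101.5) and CG18135 (102), and the nearest outside was that of Edc3 (92.6). At the T1 limit drn stood just inside with 0.680 of T0 and CG6178 just outside with 0.657. For T3 PpD3 was inside with 0.241 of T0 and Echs1 outside with 0.259, and for T4 Naa60 was inside with 0.239 and CG16868 outside with 0.252. The T1 limit alone kept out 506 probe sets, the T3 limit 39, the T4 limit 33 and the T0 limit 27.

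Other probe sets for the same genes gave a look at levels that the choice did not use, on the same RNA. There were 14 of them for 11 genes, 12 with a T0 mean under 100. At T2 against T1, 6 were called lower in limma and none higher, against 4.25% and 5.39% of all probe sets. Fhos had another probe set with means of 108 at T1 and 8.97 at T2, LpR2 one with 65.0 and 6.70, and RIOK1 one with 56.6 and 12.5, all 3 called lower. For par-1 one went from 114 ± 21.2 to 44.3 ± 8.01 (SD, n = 3) and was called, and another stood at 9.03 and 10.1, below the background level. PpD3 had another probe set with 165 at T1 and 81.6 at T2, a log2 change of -0.94, short of the limit of 1. The others included RhoGAP18B with 31.8 and 33.0, CG33941 with 29.7 and 29.0 and CG32473 with 41.6 and 67.4, none of these called. Not every probe set of these genes thus moved together.

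The wider pathways were counted from lists of genes, each gene by its brightest probe set, and only calls at T2 against T1 by the limits above were counted, beside the median log2 change. Over all probe sets 4.25% were called lower and 5.39% higher. The brightest probe sets are not like all probe sets. Of 4205 probe sets with a T0 mean of at least 100, 9.70% were called lower and 8.04% higher, with a median log2 change of 0.06. Of 40 measured maternal axis patterning genes 10 were called lower and 2 higher, with a median of -0.54, against 0.14 over all probe sets, and tor was the member among them. Of 35 genes of mRNA translation control and decay 5 were called lower and none higher (median -0.11), with pum as the member. Of 38 cell cycle regulators 6 were called lower and 3 higher (median -0.07), with twe as the member. Of 28 germ plasm and pole cell genes 5 were called lower and 2 higher (median -0.28), with mael and squ as members. Of 26 maternal transcription factors of the early embryo 6 were called lower and 2 higher (median 0.24), and ftz-f1 was the member. Of 32 furrow, actomyosin and membrane traffic genes 5 were called lower and 1 higher (median -0.04), with dah and par-1 as members. Of 18 zygotic cellularisation genes 8 were called lower and none higher (median -0.77), with slam and Elba2 as members.

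Other lists held no member. Of 38 centrosome and spindle genes 5 were called lower and 2 higher (median -0.09), and of 29 genes of DNA replication and embryonic chromatin 1 was called lower and 5 were called higher (median 0.22). Of 26 genes of ubiquitin ligases and proteolysis 3 were called lower and 3 higher (median 0.11). Of 30 nuclear envelope and pore genes 1 was called lower and 2 were called higher (median -0.01), and of 8 glycolysis genes none was called lower and 1 was called higher (median -0.30).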

How the data were processed

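The authors deposited linear signal values, 1 value for each probe set on each array, and MAS5 is named, without a version, per the submitters' processing notes. Arrays had been scaled, since after trimming 2% each averaged 100, so levels are relative to each array's average. Detection calls were not used. Of 14010 probe sets 44 controls were left out. Symbols came from the platform annotation and were updated through Entrez identifiers for 12394 of 12443 probe sets with 1 symbol, while 327 had several and 1196 none.

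Signals were tested as log2(signal + 7.3), 7.3 being the typical 25th percentile of an array, with 1 mean per stage over all 15 arrays in limma 3.58.1 (R 4.3.3) and adjustment over 13966 probe sets. The step from T2 to T3 was set against that from T1 to T2 as a contrast of the same model. The share of the fall complete at T2 used log2 stage means with the same constant. The fit was tested on simulated data. The number of arrays limits the precision.

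The members, the gene lists and the tests were chosen with earlier results of these data known, and the role groups after the values were seen. Named were the members brightest at T0, those with the smallest and largest share of the fall at T2, the highest T1 to T0 and T4 to T3 ratios, list members, and genes with another probe set. CG genes could be passed over, and the values of some named genes are not reported here.

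Alternatives tried were constants of 1 and 29.3, quantiles equalised between arrays, arrays centred either on their median or on 31 probe sets of cytoplasmic ribosomal proteins, a filter removing the dimmest 40%, robust limma settings with a trend, the replicate block, each array left out, and other forms of the rule.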

Additional observations from a re-analysis of the deposited data

How the results depend on the processing

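No called member turned its direction under any alternative. Lost under at least 1 alternative were 9 of the 73 calls at T2 against T1, 12 of the 17 at T3 against T2 and 17 of the 22 step differences. Members called lower at T3 against T2 numbered 7 centred on ribosomal proteins and 8 under the replicate block (12 to 19 with an array left out). The 1 call at T4 against T3 became 0 centred on ribosomal proteins and with constants of 1 and 29.3, 4 without the dimmest 40% of probe sets, 3 with the intensity trend and 0 to 3 with an array left out. Step differences among members numbered 10 with a constant of 1, 38 with 29.3, 6 with the block and 12 to 23 with an array left out. The causes were not tested.

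Over all probe sets the count called was 1347 at T2 against T1 and 786 with a constant of 29.3. At T3 against T2 it was 201, but 123 with a constant of 1, 112 with the block and 119 to 226 with an array left out. At T4 against T3 it was 150, and 90 to 169 with an array left out. The step difference gave 187, but 89 with a constant of 1, 337 with 29.3, 296 with the intensity trend, 31 with the block and 92 to 208 with an array left out. Deviations from the stage means correlated with r from -0.04 to 0.08 between same-numbered arrays of different stages. Between different-numbered arrays r ran from -0.10 to 0.05. These values do not settle whether the replicate numbers pair the arrays, so the counts with the block stand beside the others.

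The rule gave 77 members as deposited. It gave 129 centred on the array median and 131 on ribosomal proteins, of which 77 and 44 were shared. It gave 26 with T3 and T4 at most T0 divided by 8, 46 with T1 at least T0 and 43 with T0 at least 200. The median share of the fall complete at T2, 76.1% as deposited, was 75.1%, 71.4% and 75.5% under these last forms, 78.4% with geometric means, 74.8% after quantile normalization, 80.0% and 78.9% with the centrings on the median and on ribosomal proteins, and 73.6% to 77.9% with an array left out. Signals near the background level limit what can be said after T2, because 6 members were already at or under it on all T2 arrays. On all T3 arrays 15 members were, so the share complete at T2 may be too high.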
